A study of Mus musculus with 2 samples.

Results

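The genes described here are 10 transcription factor genes tied to the upkeep of articular cartilage, namely *Foxo1*, *Foxo3* and *Foxo4*, *Nfatc1*, *Nfatc2*, *Nfatc3* and *Nfat5*, *Klf2* and *Klf4*, and *Nkx3-2*. They were chosen by symbol, and all 10 were found among the 23628 genes with values. RNA-sequencing was performed on 2 libraries of 1 condition, replicates 1 and 2 of the *Sox9* GFPHi chondrospheres. These are colonies grown from the GFP-high femoral head cells of mouse pups at postnatal day 7, in which an IRES-EGFP reporter at *Sox9* marks cells that transcribe this cartilage regulator. Cells carrying CD31, Ter119 or CD45 were removed in the sort. The remaining cells grew for several weeks in methylcellulose at reduced oxygen, with serum and FGF2, BMP4, IGF1, LIF and TGF-β1, and both libraries share all of this. Each library holds bulk RNA of the cultured colonies. The methods state that pups were collected separately as biological replicates, but the labels do not tie a library to a pup, so the spread between the libraries may be biological or technical. With 1 condition, no test between groups was possible, and no p-value is given.

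FoxO proteins are forkhead factors that bind a short DNA element and switch on genes of stress resistance, autophagy and cell cycle arrest. Insulin and IGF signalling through AKT phosphorylates them and moves them out of the nucleus, and in joint cartilage they are known for protecting chondrocytes with age. NFATc proteins wait in the cytoplasm until calcium activates the phosphatase calcineurin, which sends them to the nucleus. NFAT5 lacks this switch and responds to high salt, a condition that cartilage matrix imposes on its cells. KLF2 and KLF4 are zinc finger factors that respond quickly to flow, load and growth factors, and KLF4 is also a reprogramming factor. NKX3-2 is a homeodomain repressor that promotes cartilage formation and holds back *Runx2*.

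Of the 10 genes, 8 matched the RefSeq promoter table of GRCm38.p6, with 10 windows in all, each of 300 bases. *Foxo4* had no entry. *Nfatc1* lies on the chromosome whose windows were left out, as given below, so whether it has an entry was not tested. Parts of 3 windows are shown, because *Nfatc2* and *Klf2* lie at opposite ends of the differences between the libraries described below, and *Nfatc3* shares a forkhead element with *Nfatc2*. *Nfatc2* and *Nfatc3* each also have another window, which lacks the forkhead element. The windows shown for them were picked because they hold it. Each run holds the 250 bases before an annotated start, 5′ to 3′ on the gene's strand.
*Nfatc2* (chr2:168601658-168601907, minus strand): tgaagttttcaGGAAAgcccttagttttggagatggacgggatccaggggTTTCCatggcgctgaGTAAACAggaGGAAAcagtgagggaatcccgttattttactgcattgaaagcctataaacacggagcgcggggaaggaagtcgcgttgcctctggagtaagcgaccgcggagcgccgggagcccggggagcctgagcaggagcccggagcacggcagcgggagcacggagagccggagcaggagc
*Nfatc3* (chr8:106058568-106058817, plus strand): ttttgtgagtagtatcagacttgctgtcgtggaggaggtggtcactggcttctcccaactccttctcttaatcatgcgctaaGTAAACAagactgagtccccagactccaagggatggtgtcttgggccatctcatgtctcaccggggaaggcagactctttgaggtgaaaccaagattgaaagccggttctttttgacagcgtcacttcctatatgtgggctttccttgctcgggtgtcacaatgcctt
*Klf2* (chr8:72318812-72319061, plus strand): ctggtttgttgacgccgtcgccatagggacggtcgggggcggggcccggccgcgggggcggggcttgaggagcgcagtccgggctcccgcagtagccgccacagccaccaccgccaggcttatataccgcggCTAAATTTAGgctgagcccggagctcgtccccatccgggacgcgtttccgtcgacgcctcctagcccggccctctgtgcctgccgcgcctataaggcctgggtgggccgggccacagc

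Capitals mark the forkhead element GTAAACA in *Nfatc2* and *Nfatc3*, the NFAT core GGAAA in *Nfatc2* (TTTCC on the other strand) and the MEF2 element in *Klf2*. Other matches in these runs stay in lower case, among them NFAT cores at position -28 in *Nfatc3* and position -74 in *Klf2*. The MEF2 element was searched as CTA and TAG with any 4 bases between them, and all elements were searched on both strands. In *Nfatc2* the forkhead element begins at position -185 from the start and the NFAT cores at positions -239, -200 and -175, with no overlap between them. In *Nfatc3* the forkhead element begins at position -168, and in *Klf2* the MEF2 element at position -118. The forkhead element occurred in 3.65% of all 32851 promoter windows outside chromosome 18, and the MEF2 element in 3.69%. These windows are also meant by all windows below. The NFAT core, with 5 bases, occurred in 61.3% of all windows and in 7 of the 10 windows of the 8 genes, covering 6 genes. A GC-rich box bound by KLF factors, GGGNGGGG, occurred in 33.2% of all windows and in 7 of the 10 windows, covering 7 genes. In *Klf4* it was found at 5 positions. A match describes the letters and is not a binding site.

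The values are counts-per-million (CPM), and where a pair of values is given, replicate 1 comes first. The steps between the lowest values imply 43300000 and 42100000 reads on genes, and the smallest level that this depth can show, set at 3 reads, was 0.0693 and 0.0712 CPM. Levels in CPM depend on a few dominant genes. Without the 10 highest genes in the total, *Foxo1* would average 263 in place of 159 CPM and *Nfat5* 532 in place of 319 CPM. Log2 ratios of replicate 2 to replicate 1 were taken on CPM + 0.1, a scale that understates differences of low genes. Over the 12631 genes that averaged 1 CPM or more, their median was 0.30 and their SD 0.83. The chondrocyte markers, named in full to define the list, are the 10 genes *Sox9*, *Col2a1*, *Acan*, *Col9a1*, *Col11a1*, *Hapln1*, *Comp*, *Matn1*, *Matn3* and *Chad*. All of them exceeded 1 CPM, and together they reached 194509 and 131583 CPM. Relative to the median gene, 9 of the 10 were lower in replicate 2, with a median of -0.85. On that scale 4 of the 10 were more than 2-fold lower, against 6.06% of all genes tested, and 0 were more than 2-fold higher. *Matn1* was the lowest, with 902 and 29.2 CPM, so the libraries differed in their cartilage markers.

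All 10 factors averaged more than 1 CPM and so entered these counts. Of these, 2 were more than 2-fold higher in replicate 2, *Nfatc1* and *Nfatc2*, which is 20% of the 10 against 11.4% of all genes tested. None was more than 2-fold lower, against 3.71% of all genes. Relative to the median gene, the same 2 genes were higher, against 7.43% of all genes, and *Klf2* was more than 2-fold lower, against 6.06%. With so few genes these shares do not set the factors apart from other genes. The same shares over all genes are the background for the counts in the lists below. The median log2 ratio of the 10 was 0.22, and -0.09 relative to the median gene. The remaining 7 factors stayed within 2-fold on both scales. The direction of *Foxo3*, *Foxo4* and *Klf4* depended on the scaling, since each was slightly higher in replicate 2 in CPM and turned slightly lower under at least 1 other scaling.

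**Figure D1:**
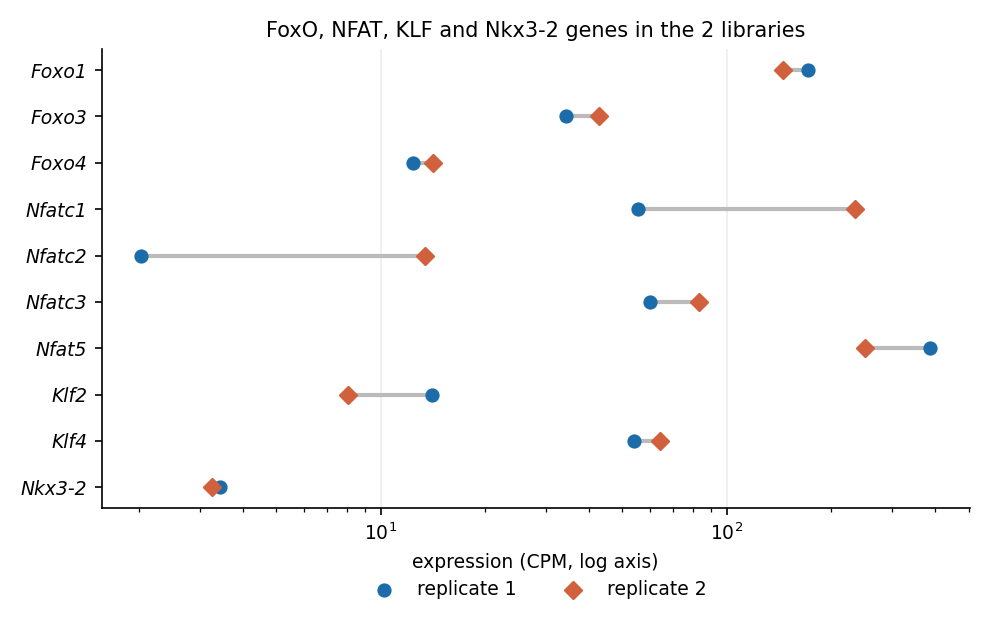
Expression of the 10 factors in CPM on a log axis, with 1 circle for replicate 1 and 1 diamond for replicate 2 and a bar joining them. The bars of *Nfatc1* (55.5 and 235 CPM) and *Nfatc2* (2.03 and 13.5 CPM) are the longest, and those of *Nkx3-2* and *Foxo4* are short.

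**Figure D2:**
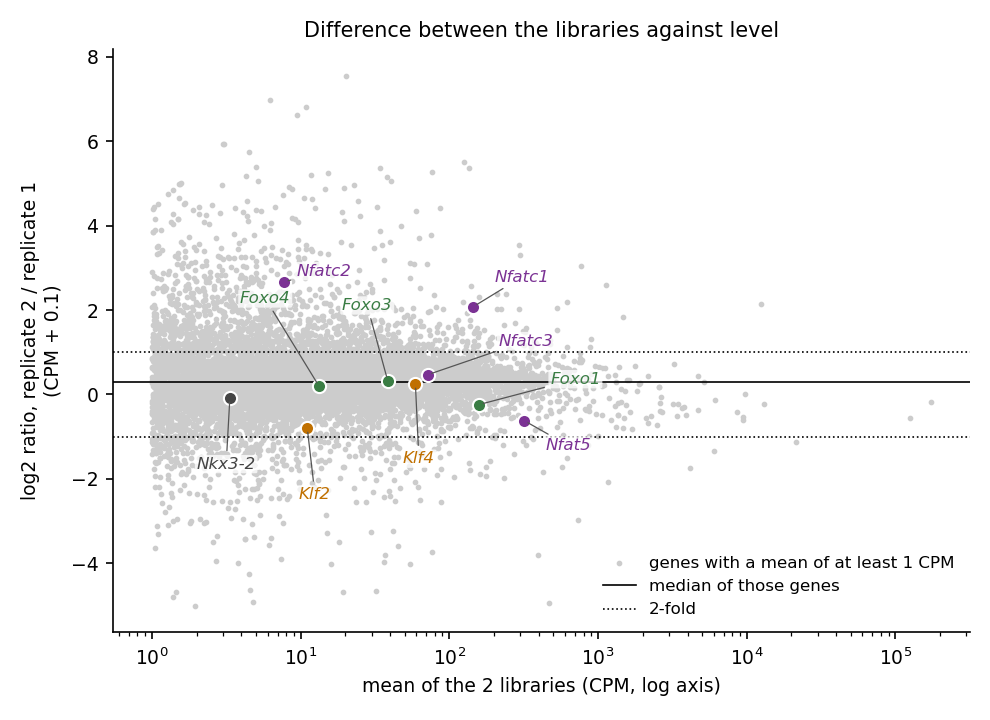
Log2 ratio of replicate 2 to replicate 1 against mean CPM on a log axis, with grey points for 12631 genes, a solid line at their median of 0.30 and dotted lines at 2-fold. *Nfatc1* and *Nfatc2* lie above the upper dotted line, while the other 8 factors lie between the dotted lines.

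The 3 FoxO genes among the 10 differed little between the libraries. *Foxo1*, on chromosome 3 of GRCm38 from 52268336 to 52353221, is the family member studied most in articular cartilage. It was measured at 172 and 146 CPM, averaging 159 ± 18.7 CPM (SD, n = 2). Its log2 ratio was -0.24, or -0.55 relative to the median gene, with a counting error of 0.02, and it was lower in replicate 2 under every scaling tried. *Foxo3*, on chromosome 10 from 42181841 to 42276755, is linked to longevity and autophagy. It had 34.3 and 42.8 CPM, averaging 38.6 ± 6.07 CPM (SD, n = 2), and a log2 ratio of 0.32 that shrank to 0.02 relative to the median gene. *Foxo4*, on the X chromosome from 101254528 to 101260873, had 12.4 and 14.2 CPM, averaging 13.3 ± 1.26 CPM (SD, n = 2). Its log2 ratio of 0.19 became -0.11 relative to the median gene. *Foxo6*, the fourth family gene and not among the 10, was low, with 3.05 and 1.54 CPM. Its log2 ratio of -0.94 lay within 2-fold, but at -1.24 relative to the median gene it was more than 2-fold lower.

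Levels between genes were compared per kilobase of exons, within each library, so that the scaling of the library has no part in the ratio. Per kilobase, *Foxo1* exceeded *Foxo3* 4.39-fold in replicate 1 and 2.97-fold in replicate 2, which on the log2 scale is 1.85 ± 0.40 (SD, n = 2). It exceeded *Foxo4* by a log2 ratio of 2.26 ± 0.31 (SD, n = 2). *Foxo3* exceeded *Foxo4* by 0.41 ± 0.09 (SD, n = 2) on the same log2 scale, so the order *Foxo1*, *Foxo3*, *Foxo4* was the same in both libraries and each step was larger than its spread. The exons of *Foxo1* share 674 bases with the antisense gene *Gm20402*, which had 0.001 and 0.57 CPM. How the counting used strand is not given in the sources used here, so reads from those bases cannot be told apart.

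The genes that act on FoxO proteins were taken from a list of 17, from the insulin and IGF receptors to AKT and its partners. All 17 exceeded 1 CPM. More than 2-fold higher in replicate 2 were 3 of the 17, against 11.4% of all genes tested. They were *Irs2* (4.21 and 10.5 CPM), *Ywhaz* (173 and 353 CPM) and *Igf1r* (28.3 and 61.3 CPM), the last named after its values were seen. *Irs1*, the other insulin receptor substrate of the list, was more than 2-fold lower, with 85.0 and 38.6 CPM. Relative to the median gene, 1 gene was higher (*Irs2*) and 1 lower (*Irs1*), and the list's median was 0.02. The kinase genes *Akt1* (127 and 193 CPM) and *Akt2* (102 and 102 CPM) stayed within 2-fold.

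Of 22 known FoxO target genes, 21 exceeded 1 CPM, and they summed to 926 and 891 CPM. Relative to the median gene, 17 of the 21 were lower in replicate 2 and 4 higher, with a median log2 ratio of -0.29, although the median was 0.01 in CPM. The sum was led by *Map1lc3b*, an autophagosome gene, with 148 and 121 CPM, *Txnip*, a brake on thioredoxin and glucose uptake, with 126 and 105 CPM, and *Cat*, which encodes catalase, with 78.4 and 107 CPM. *Pdk4*, a starvation gene of glucose metabolism, was the lowest relative to the median gene at -1.27, with 3.28 and 1.64 CPM. More than 2-fold higher in CPM were *Irs2* and *Bcl2l11*, a death gene with 0.97 and 2.33 CPM that is named after its values were seen.

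The NFAT genes differed in opposite directions. *Nfatc1*, on chromosome 18 from 80606205 to 80713071, marks articular cartilage progenitors and is also the master factor of osteoclasts. It was measured at 55.5 and 235 CPM, averaging 145 ± 127 CPM (SD, n = 2). The difference was 4.23-fold, a log2 ratio of 2.08 with a counting error of 0.03, and 3.14% of all genes tested had a higher ratio. *Nfatc2*, on chromosome 2 from 168476410 to 168601657, is known for preventing joint degeneration in adult mice. It had 2.03 and 13.5 CPM, which correspond to about 88 and 567 reads. The difference was 6.62-fold, a log2 ratio of 2.67 with a counting error of 0.17, and 1.81% of genes had a higher ratio. Both remained more than 2-fold higher in replicate 2 under every scaling tried.

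*Nfatc3*, on chromosome 8 from 106058840 to 106130537, encodes another calcium-regulated family member. It had 60.1 and 83.1 CPM, averaging 71.6 ± 16.2 CPM (SD, n = 2), and a log2 ratio of 0.47, or 0.16 relative to the median gene. Its exons overlap 219 bases of *Esrp2* on the opposite strand, which had 0.39 and 0.29 CPM. *Nfat5*, on the same chromosome from 107293470 to 107379517, had 388 and 251 CPM, averaging 319 ± 96.4 CPM (SD, n = 2). It was lower in replicate 2 by a log2 ratio of -0.62, or -0.93 relative to the median gene, and 6.75% of genes had a lower ratio. *Nfatc4*, the remaining family gene, was near absent at 0.555 and 0.427 CPM.

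Per kilobase of exons, *Nfat5* exceeded *Nfatc1* 2.84-fold in replicate 1, whereas in replicate 2 it had 0.44 times the *Nfatc1* level. The log2 ratio of 0.15 ± 1.91 (SD, n = 2) therefore sets no order between them. *Nfatc1* exceeded *Nfatc3* 1.45-fold in replicate 1 and 4.43-fold in replicate 2. It exceeded *Nfatc2* 38.6-fold and 24.7-fold, a log2 ratio of 4.95 ± 0.46 (SD, n = 2). *Nfatc2* was thus the lowest of the 4 in both libraries.

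In CPM, no gene of the calcium pathway lists differed as much as *Nfatc1* or *Nfatc2*, although relative to the median gene *Rcan2*, at -1.83, lay as far from it as *Nfatc1*, at 1.77. Of the 5 calcineurin genes, 4 have values, and none was more than 2-fold apart. The catalytic subunit gene *Ppp3ca* had 120 and 162 CPM and the regulatory subunit gene *Ppp3r1* had 63.3 and 86.0 CPM. Among the genes for calcineurin inhibitors, 5 of 6 exceeded 1 CPM. *Rcan1*, both an inhibitor and a known target of NFAT, had 16.5 and 29.0 CPM, a log2 ratio of 0.80. *Rcan2* was more than 2-fold lower in replicate 2, with 3.67 and 1.21 CPM. Of 8 kinase genes that return NFAT to the cytoplasm, *Dyrk2* was more than 2-fold higher in CPM, with 10.2 and 22.8 CPM, and none was relative to the median gene. *Csnk1a1* (115 and 157 CPM), *Gsk3a* (78.3 and 86.5 CPM) and *Gsk3b* (65.3 and 63.9 CPM) stayed within 2-fold. In the list of 8 genes for store-operated calcium entry and calmodulin, the channel gene *Orai2* was more than 2-fold higher, with 28.8 and 89.2 CPM, while *Orai1* had 26.8 and 16.7 CPM. Medians relative to the median gene were 0.13 for the calcineurin subunits, 0.02 for the inhibitors, 0.07 for the kinases and 0.27 for the calcium genes.

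**Figure D3:**
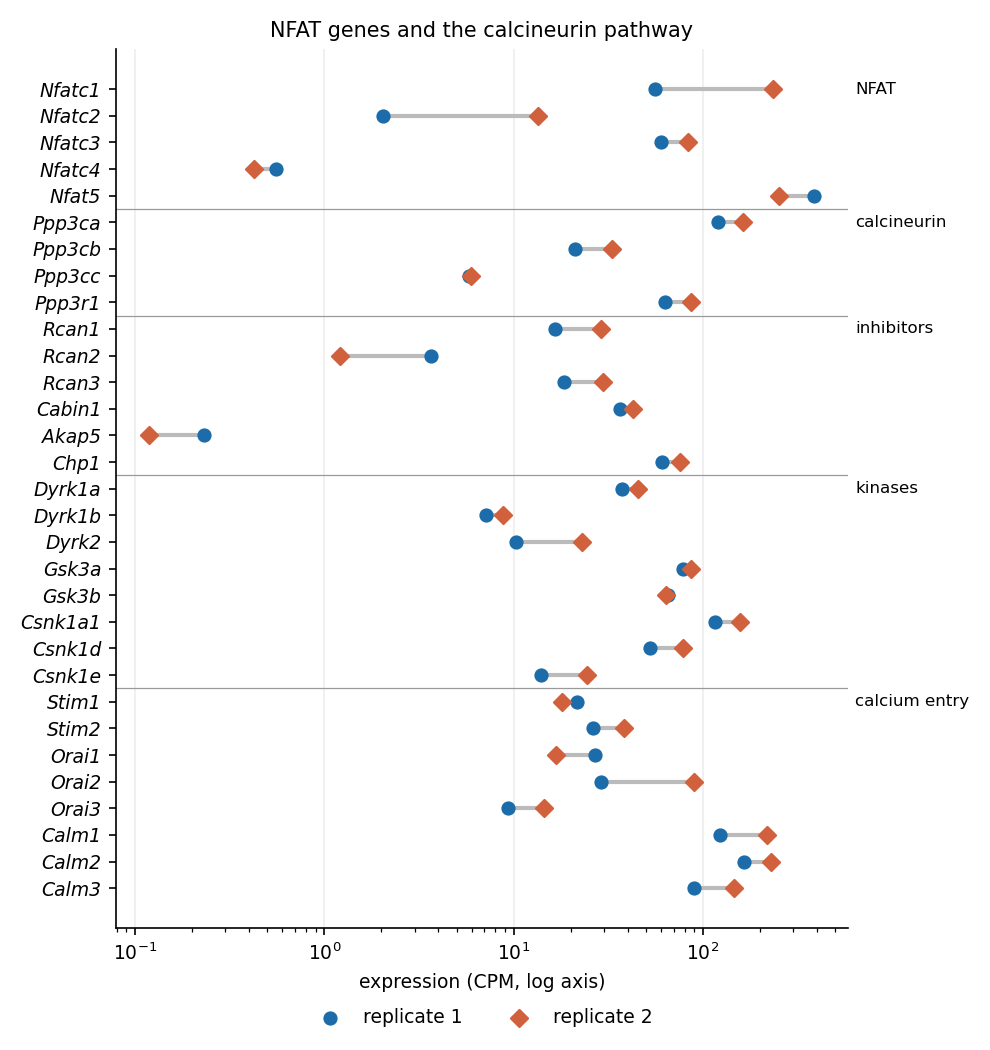
CPM on a log axis of the NFAT genes and of the genes for calcineurin subunits, inhibitors, kinases and calcium entry, with a circle for replicate 1 and a diamond for replicate 2. *Nfatc1*, *Nfatc2*, *Orai2* and *Rcan2* have long bars, and the calcineurin subunits have short ones.

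*Nfat5* is known to switch on genes of the response to high salt, among them transporters and enzymes that gather organic osmolytes, chaperones and a water channel, and 9 such genes were examined. Of these, 8 exceeded 1 CPM, and 6 of the 8 were lower in replicate 2 relative to the median gene, with a median of -0.47. The taurine transporter gene *Slc6a6* had 315 and 218 CPM, a log2 ratio of -0.53. The amino acid transporter gene *Slc38a2* had 284 and 256 CPM, and the aldose reductase gene *Akr1b3* had 30.3 and 43.3 CPM. *Hspa4l*, a chaperone gene, was more than 2-fold higher in CPM, with 6.03 and 12.8 CPM. *Pnpla6*, with 36.1 and 19.3 CPM, was more than 2-fold lower relative to the median gene.

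Markers of other cells that use NFAT factors were also read. Osteoclast markers summed to 118 and 147 CPM, almost all of it *Ctsk*, with 111 and 144 CPM. Of the 8, 7 have values. *Ocstamp* and *Dcstamp*, genes of osteoclast fusion, were listed at 0 in both libraries and *Acp5* was lower in replicate 2, with 6.07 and 0.712 CPM, while *Atp6v0d2* had 0.809 and 2.97 CPM. Leukocyte markers summed to 3.26 and 3.61 CPM over 7 genes, led by *Cd68*, with *Adgre1* and *Itgam* at 0. The 7 osteoblast markers summed to 6.38 and 55.0 CPM. Of the 5 above 1 CPM, 3 were more than 2-fold higher in replicate 2, whereas *Bglap2* had 1.19 and 1.55 CPM and *Ibsp* had 2.24 and 3.27 CPM. Most of the sum in replicate 2 was 1 gene, as *Dmp1*, an osteocyte gene, had 0.116 and 40.4 CPM. *Sp7*, the osterix gene, had 1.96 and 6.81 CPM. Their part in the differences of *Nfatc1* and *Nfatc2* was not tested. In bulk RNA, fewer cells of a type and less RNA per cell cannot be told apart.

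*Klf2*, on chromosome 8 from 72319033 to 72321656, is induced by flow and restrains inflammatory genes. It was measured at 14.1 and 8.07 CPM, averaging 11.1 ± 4.28 CPM (SD, n = 2). The log2 ratio was -0.80 with a counting error of 0.10, and 5.11% of genes had a lower ratio. It was -1.10 relative to the median gene. *Klf4*, on chromosome 4 from 55527143 to 55532466, had 54.2 and 64.2 CPM, averaging 59.2 ± 7.10 CPM (SD, n = 2). Its log2 ratio was 0.25, or -0.06 relative to the median gene. Per kilobase of exons, *Klf4* exceeded *Klf2* 2.32-fold in replicate 1 and 4.82-fold in replicate 2, which on the log2 scale is 1.74 ± 0.74 (SD, n = 2).

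Of the 17 genes of the KLF family, 16 have values and 13 exceeded 1 CPM. Per kilobase, the mean of *Klf4* was 19.4 CPM, against 6.01 for *Klf2*, 5.96 for *Klf3*, 5.42 for *Klf6*, 5.24 for *Klf16* and 5.03 for *Klf13*. *Klf9*, a hormone-responsive member, had 4.67 CPM per kilobase and *Klf10*, which TGF-β induces, had 3.81. *Klf7*, *Klf11*, *Klf12* and *Klf15* lay between 1.23 and 1.69 CPM per kilobase. *Klf5* had 0.254 and 2.97 CPM, and was the sole member more than 2-fold higher. *Klf2* and *Klf12* were more than 2-fold lower relative to the median gene, the latter with 11.1 and 6.57 CPM. *Klf1*, *Klf8* and *Klf14* had means of 0.0231, 0.303 and 0.128 CPM.

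The kinase cascade and MEF2 factors that are known to switch on *Klf2* and *Klf4* were close between the libraries. Of these 8 genes, 7 exceeded 1 CPM, and none was more than 2-fold apart. All 7 were slightly higher in replicate 2 relative to the median gene, by 0.05 to 0.48 on the log2 scale. Their part in the *Klf2* difference was not tested. *Mef2d* had 76.8 and 98.4 CPM, *Mef2a* had 64.5 and 88.9 CPM, and *Mef2c*, needed for hypertrophy, had 7.07 and 12.2 CPM. Among target genes known from endothelial cells, *Thbd* had 2.17 and 8.71 CPM, *S1pr1* had 0.716 and 0.854 CPM and *Nos3* did not exceed 0.0237 CPM. Among 7 endothelial markers, *Cdh5*, *Kdr*, *Tek*, *Emcn* and *Cldn5* were at 0 in both libraries. All 7 summed to 0.370 and 0.261 CPM.

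*Klf2* and *Klf4* are also early-response genes, which respond within minutes of a stimulus, and 16 other genes of this kind were examined. They summed to 652 and 342 CPM, and relative to the median gene 12 of the 16 were lower in replicate 2, with a median of -0.80. More than 2-fold lower in CPM were 5 of the 16, against 3.71% of all genes tested. *Fosb* had 68.6 and 4.27 CPM, *Egr1* had 112 and 45.7 CPM, and *Fos* (54.3 and 5.60 CPM), *Jun* (62.1 and 20.1 CPM) and *Dusp1* (88.8 and 39.8 CPM) are named after their values were seen. In the opposite direction, 4 of the 16 were more than 2-fold higher, against 11.4% of all genes tested. *Fosl1*, a later-acting FOS family gene, had 0.722 and 20.5 CPM. *Egr3* (0.393 and 6.74 CPM), *Egr2* (0.485 and 1.71 CPM) and *Nr4a1* (1.04 and 2.47 CPM) were named after their values were seen. *Klf2* was lower together with the first set and *Klf4* with neither, and the part of these genes in the *Klf2* difference was not tested.

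**Figure D4:**
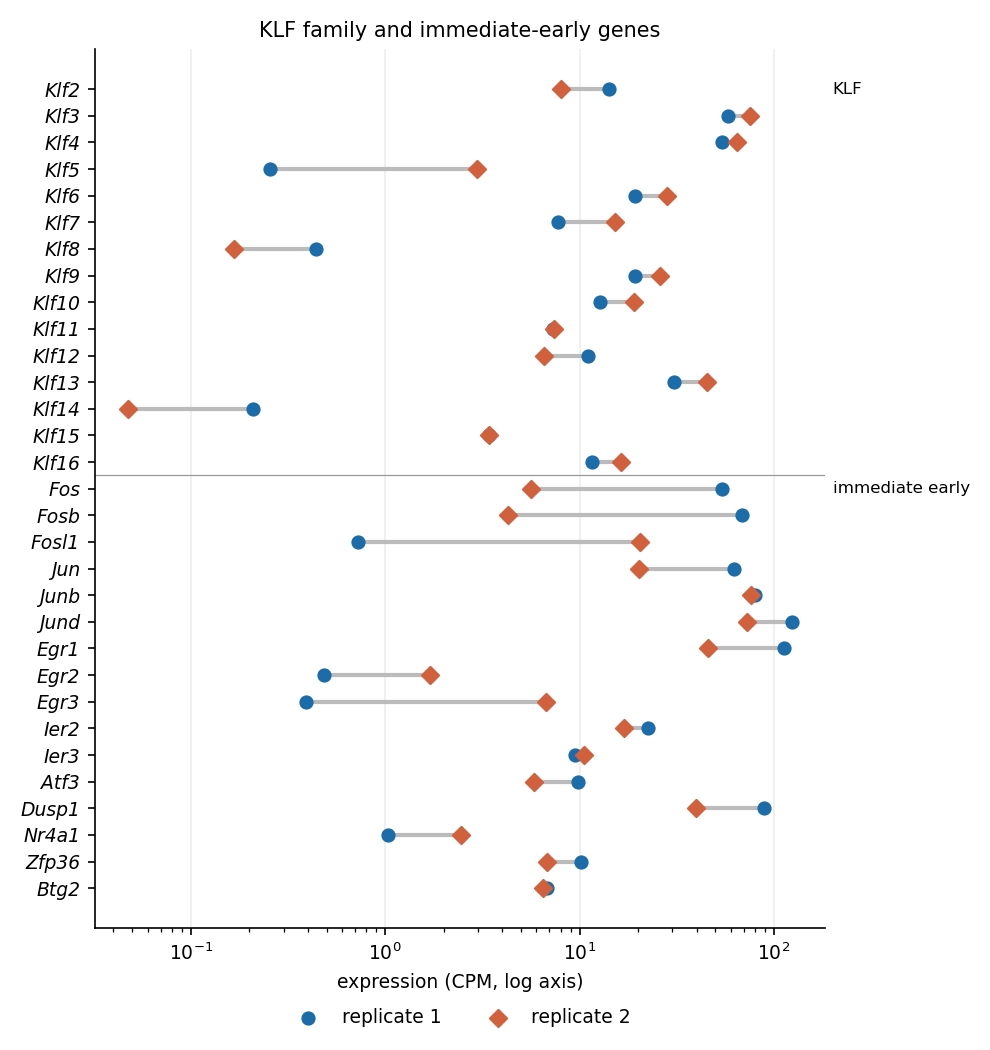
CPM on a log axis of 15 KLF genes and 16 immediate-early genes, with a circle for replicate 1 and a diamond for replicate 2. *Klf1* is left out because it was at 0 in replicate 2. *Fos* and *Fosb* lie far to the left in replicate 2 and *Fosl1*, *Egr3* and *Klf5* far to the right.

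*Nkx3-2*, on chromosome 5 from 41761483 to 41764501, was low in both libraries. It had 3.44 and 3.25 CPM, about 149 and 137 reads, averaging 3.35 ± 0.136 CPM (SD, n = 2). Its log2 ratio was -0.08 with a counting error of 0.17, and -0.38 relative to the median gene, lower in replicate 2 under every scaling tried. Of 16 genes of its pathway, itself included, 14 have values and 11 exceeded 1 CPM. *Sox9*, which induces cartilage together with *Nkx3-2*, had 252 and 279 CPM, and *Sox6* had 52.3 and 50.0 CPM. *Runx2*, the bone factor that *Nkx3-2* represses, had 16.2 and 39.6 CPM. It was more than 2-fold higher in CPM, with a log2 ratio of 1.29, but within 2-fold relative to the median gene, at 0.98. *Col10a1*, the collagen gene of hypertrophic cartilage, had 1752 and 2109 CPM. *Pax1*, which acts upstream of *Nkx3-2* in the spine, had 8.53 and 0.925 CPM, a log2 ratio of -3.07. The list's median relative to the median gene was -0.16.

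Per kilobase of exons, the order by mean was *Nfatc1* at 19.4 ± 17.0 CPM (SD, n = 2), *Klf4* at 19.4 ± 2.33 CPM (SD, n = 2), *Foxo1* at 18.4 ± 2.16 CPM (SD, n = 2) and *Nfat5* at 17.4 ± 5.24 CPM (SD, n = 2). These 4 did not differ from their neighbours in the order beyond the spread, as the log2 ratios between neighbours were smaller than their SDs. *Nfat5* exceeded the next gene, *Nfatc3* at 6.11 ± 1.38 CPM (SD, n = 2), by a log2 ratio of 1.49 ± 0.77 (SD, n = 2). *Nfatc3*, *Klf2* at 6.01 ± 2.32 CPM (SD, n = 2) and *Foxo3* at 5.09 ± 0.802 CPM (SD, n = 2) were again not separated. *Foxo3* and *Foxo4*, at 3.82 ± 0.361 CPM (SD, n = 2), and *Foxo4* and *Nkx3-2*, at 1.95 ± 0.0792 CPM (SD, n = 2), were each separated by more than the spread. *Nfatc2* came last at 0.732 ± 0.763 CPM (SD, n = 2), but its log2 ratio to *Nkx3-2* varied as much as its mean. Among all 22965 genes with a known length, *Nfatc1* ranked 3402 in replicate 1 and 1034 in replicate 2, the widest move among the upper 4, and *Klf4* ranked 1483 and 1539.

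**Figure D5:**
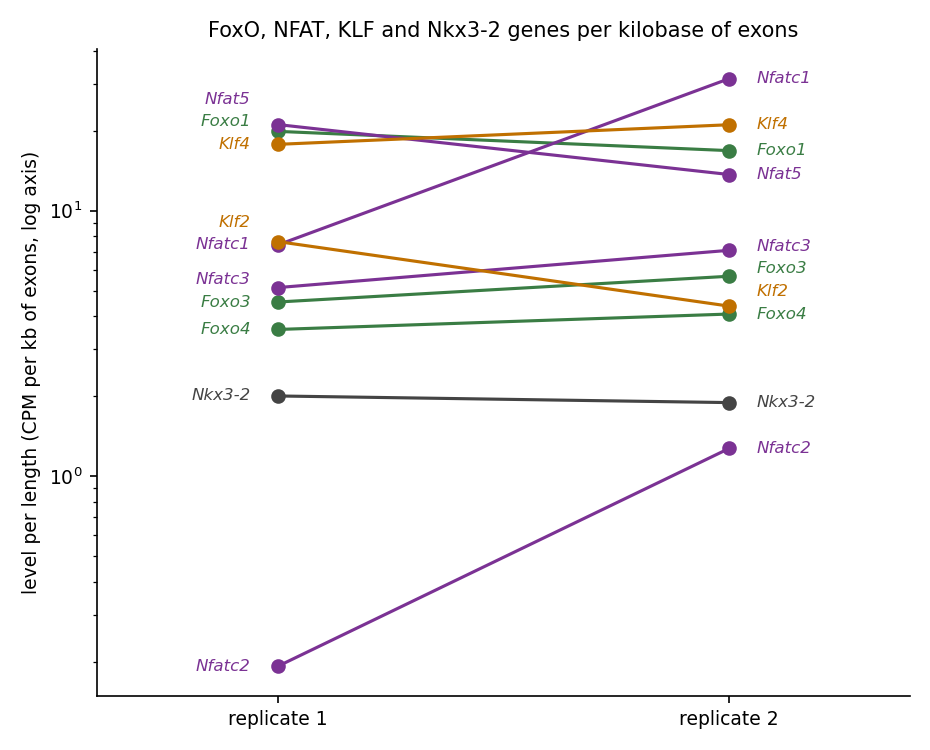
Level of the 10 factors per kilobase of exons in each library on a log axis, with lines joining the libraries and colours by family. *Nfatc1* moves from the fifth place to the first, *Nfat5* from the first to the fourth, and *Nfatc2* stays last.

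Fibroblast, muscle and erythroid markers give the remaining background. The 8 fibroblast markers summed to 2677 and 1353 CPM, led by *Col1a1* (1166 and 584 CPM). Of the 5 above 1 CPM, 3 were below the median gene and 2 above it, among them *Fap* (14.3 and 27.4 CPM). More than 2-fold lower relative to the median gene were 2 of the 5, *Dcn* (879 and 267 CPM) and *Col1a1*, and 0 were more than 2-fold higher. The 7 muscle markers summed to 9.55 and 3.09 CPM, most of it *Tnnt3*. The 7 erythroid markers reached 0.139 and 0.120 CPM in all. Sequence shared with other genes was found for 4 of the 10 factors. Of the 50-base windows of their transcripts, 6.80% for *Foxo1*, 1.70% for *Nfatc3*, 0.678% for *Nfat5* and 0.263% for *Klf4* also occurred in transcripts of other genes, and 0% for the other 6.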

How the data were processed

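The deposited values are CPM. Per the methods and the labels, the authors aligned single-end reads of stranded poly(A) libraries to GRCm38 with the GENCODE M25 reference by STAR 2.7.3a, and quantified them with Partek E/M in Partek Flow 10.0.21.0801. That method can divide a read among genes sharing its sequence. An offset of 0.0001 CPM, present in every deposited value, was subtracted here. Below 20 reads, 63.5% and 62.4% of the values of replicates 1 and 2 fell on a multiple of the step to within 0.01 reads, so reads were not recovered, no count model was fitted, and quoted reads are approximate. Counting errors cover sampling of reads only.

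Means, SDs and log2 ratios (pseudocount 0.1 CPM, genes averaging 1 CPM or more) were computed, and divided by exonic length from GENCODE M21 of GRCm38 for 97.2% of genes. The 10 genes and the pathway and marker lists were chosen with earlier results of these data known. Named were these 10, all genes of their families and, per list, the 3 highest genes and the genes with the largest and smallest ratio, besides defining markers at or under 3 reads. Genes most alike in pattern were not sought, since 2 libraries give 1 ratio. Python 3.11.15, numpy 2.4.6, pandas 2.3.3 and matplotlib 3.10.9 were used, and the computation was tested on simulated data. Alternatives covered scaling, pseudocount, filter, length and leaving out each library. A listed gene is not reported here.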

Additional observations from a re-analysis of the deposited data

How the results depend on the processing

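No paired analysis was possible because the libraries form 1 group. In all, 44 results were recomputed under 215 settings. A shift smaller than the spread between libraries, or within 1.5 times where the result is a count, was seen in 182 of them, and a larger one in 33. Of the larger shifts, 8 were mean levels of factors that increased without the 10 highest genes in the total. The means of *Nfatc1* (145 to 228 CPM) and *Nfatc2* (7.74 to 12.1 CPM) increased as well, but by less than their wide SDs of 127 and 8.07 CPM. Signs turned for values smaller than the spread. The log2 ratio of *Nfat5* to *Nfatc1* went from 0.15 to -0.03 with the longest coding transcript as length and to -1.20 without replicate 1. With no filter on the mean, list medians went from -0.16 to 0.08 for the *Nkx3-2* pathway, from -0.40 to 0.13 for leukocyte markers and from 0.06 to -0.13 for osteoclast markers. For the genes acting on FoxO, the median went from 0.02 to -0.001 at 10 CPM or more. The spread used for the median log2 ratio of a list is that of a single gene, 0.59, which is lenient for a median. A mean over 2 libraries cannot shift by 1 SD when either is dropped, so those settings say nothing about stability. With 2 libraries, no setting can say which library is typical.

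Genes more than 2-fold higher in replicate 2 numbered 946 under TMM scaling, 897 with upper quartile scaling, 938 relative to the median gene, 2817 with no filter on the mean and 530 with a mean of at least 10 CPM, in place of 1435. Genes more than 2-fold lower numbered 742, 789, 766, 1538 and 152 under these settings, in place of 468. Of the 10 factors, 1 was more than 2-fold higher with a mean of at least 10 CPM, because *Nfatc2* lies below that mean. In each of the first 3 settings 1 factor, *Klf2*, was more than 2-fold lower. When the total excluded the 10 highest genes, its log2 ratio was -0.998.

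Without division by length, 0 of the 10 factors kept their place in the order, and leaving out each library left 4 to 8 in place (4 without replicate 2). The log2 ratios then were 3.58 for *Foxo1* to *Foxo4*, 1.53 for *Foxo3* to *Foxo4* and 4.45 for *Nfatc1* to *Nfatc2*. Relative to the median gene, the median log2 ratio of the NFAT family was 0.34 with no filter on the mean and 0.14 with at least 10 CPM, in place of 0.97. The median of the osteoblast markers was 7.23 with at least 10 CPM, where 1 gene is left, and 0.72 with a pseudocount of 1 CPM, in place of 1.44. With no filter, the median was 0.14 for the endothelial targets of KLF factors, in place of 1.65, and -0.89 for the muscle markers, in place of -2.30, since the filter leaves 1 gene of each.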
